A study of Homo sapiens with 3 samples.

Results

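The windows described here are megabase stretches of the autosomes of HCT116 cells in which nascent strands were called, but in which no replication origin was found reproducibly. HCT116 is an established human colorectal cancer cell line, and the data came from untreated wild-type cells in 3 replicates that formed a single group, so no condition was compared with another. Short nascent strand sequencing (SNS-seq) purifies the short leading strands made just after initiation, which carry an RNA primer at their 5′ end and so survive lambda exonuclease, and sequences them. Each replicate came with narrow summits from MACS2 and diffuse regions from EPIC2, 2 peak callers, in hg19 coordinates. The lists hold no read numbers, so read depth was unknown, and the labels do not say whether the replicates were separate cultures.

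The windows were chosen by the calls themselves. An EPIC2 region holding at least 1 summit of its own replicate is called a common region, and a place where common regions of at least 2 replicates overlapped is called a consensus origin. Chromosomes 1 to 22 were divided into 2893 windows of 1 Mb up to the last call of each chromosome. Of these, 2698 held 10 or more summits summed over replicates, and 239 of the 2698, or 8.86%, held no start of a consensus origin. These 239 are called origin-free windows, although 3 of them were reached by a consensus origin that began in the window before. The other 2459, with 1 to 76 consensus origin starts and a median of 11, are called origin windows. The number depends on the replicates, since leaving out replicate 1, 2 or 3 and requiring both others gave 1022, 494 or 386 origin-free windows. A further 195 windows had under 10 summits, 168 of them without any call, and were left out. Because summits and consensus origins made the choice, all numbers of calls in the windows are descriptions without a test, apart from those of a replicate that had no part in the choice.

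Human DNA replication begins at sites licensed in G1 phase by the origin recognition complex (ORC), which loads the MCM helicase, and only a part of the licensed sites fires in any S phase. Active origins are known to concentrate near transcription start sites and in open, early-replicating chromatin. Long gene-poor domains are known to replicate late, with fewer and less efficient origins, and are often copied by forks that enter from their flanks. Genes, replication timing and DNA sequence at these windows were not analysed here, since the genome and annotation at hand are of another build than the calls.

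Origin-free windows kept about 1 summit for every 3 of an origin window, but far fewer diffuse regions. Replicate 1 had from 4 to 56 summits per origin-free window with a median of 29, against a median of 80 in origin windows. Replicate 2 had 0 to 22 with a median of 9, against 22, and replicate 3 had 1 to 48 with a median of 20, against 62. The mean number of summits was 0.347, 0.350 and 0.331 times that of origin windows in replicates 1, 2 and 3, a mean ratio of 0.343 ± 0.0103 (SD, n = 3). The replicates were thus nearly alike in this ratio, although replicate 1 listed 215368 summits on these chromosomes, replicate 2 62131 and replicate 3 161271. All 3 replicates had a summit in 238 of the 239 windows.

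EPIC2 regions, which mark broad enrichment, were scarcer by a wider margin. Replicate 1 had 1489 regions starting in the 239 windows, a mean of 6.23 per window against 49.8 in origin windows, which is a ratio of 0.125. Replicate 2 had 336, a mean of 1.41 against 17.9 and a ratio of 0.0787. Replicate 3 had 383, a mean of 1.60 against 31.9 and a ratio of 0.0503. The mean ratio was 0.0847 ± 0.0378 (SD, n = 3), and in every replicate the ratio for EPIC2 regions was lower than that for summits. Windows chosen without replicate 1 had a mean ratio of 0.175 over replicates 2 and 3. Those chosen without replicate 3 had 0.129 over replicates 1 and 2. Both means leave out a replicate that the mean over all 3 includes. No EPIC2 region began in 3 origin-free windows for replicate 1, in 77 (32.2%) for replicate 2 and in 84 (35.1%) for replicate 3. Among origin windows the numbers were 0, 19 (0.773%) and 56 (2.28%). Replicate 1 supplied most of the regions left, but it also listed the most on these chromosomes, 123901 against 44289 and 78782 in replicates 2 and 3. The regions covered 0.565%, 0.317% and 0.408% of the origin-free windows in replicates 1, 2 and 3, against 10.7%, 5.54% and 13.1% of origin windows.

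**Figure D1:**
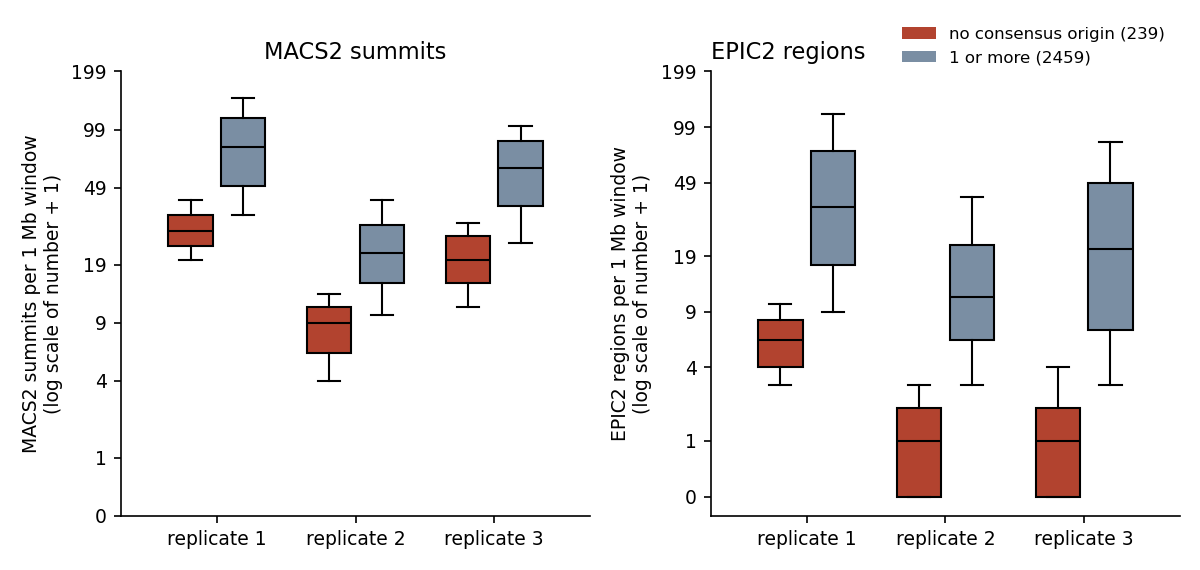
MACS2 summits (left) and EPIC2 regions (right) per 1 Mb window in each replicate, on a log scale of the number plus 1. Boxes give the quartiles and the median and whiskers the 10th and 90th percentiles, for 239 origin-free windows and 2459 origin windows; medians of summits were 29, 9 and 20 against 80, 22 and 62, and medians of EPIC2 regions 6, 1 and 1 against 36, 11 and 21.

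The choice did not simply take the windows with the fewest summits. Summed over replicates, origin-free windows had 10 to 107 summits with a median of 58, and origin windows had 12 to 429 with a median of 165, so the ranges overlapped. Among 98 windows with 30 to 49 summits, 59 were origin-free, which is 60.2%. The share was 41.4% of 278 windows with 50 to 69 summits, 15.7% of 281 windows with 70 to 89 and 4.85% of 227 windows with 90 to 109. None of the 1791 windows with 110 or more summits was origin-free. At the low end, 10 of 23 windows with 10 to 29 summits were origin-free. Within the class of 50 to 69 summits, origin-free windows had means of 5.92, 1.45 and 1.52 EPIC2 regions in replicates 1, 2 and 3, and origin windows had 8.21, 3.18 and 3.29. Consensus origins are made of such regions, so part of this difference follows from the rule.

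**Figure D2:**
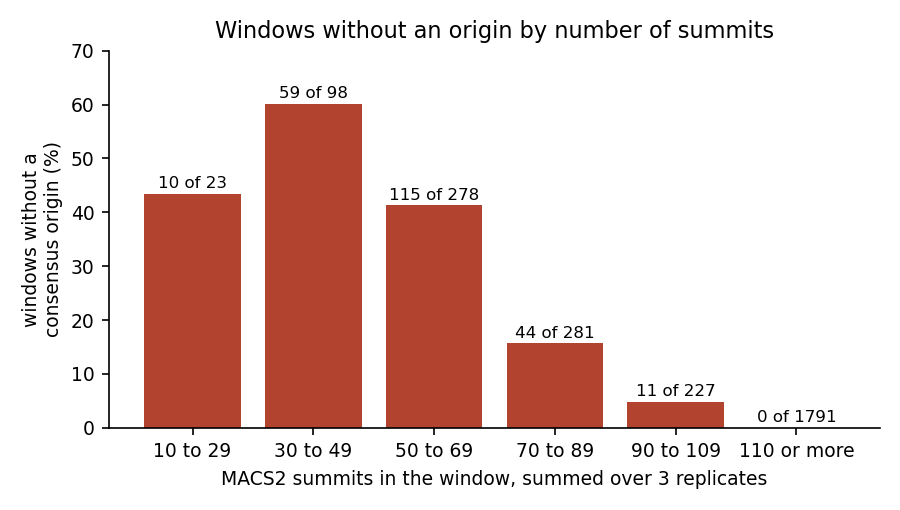
Share of 1 Mb windows without a consensus origin start, in percent, by the number of MACS2 summits in the window summed over the 3 replicates. The number of origin-free windows and of all windows of the class stands above each bar; the share was highest, 60.2%, at 30 to 49 summits and lay at 0 of 1791 from 110 summits on.

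The limits of the rule were narrow on both sides. The windows with the fewest summits were those at the ends of chromosome 7, from 159000001 to 160000000, and of chromosome 9, from 141000001 to 142000000, with 10 summits each. Just outside, a window on chromosome 11 from 49000001 to 50000000 and one on chromosome 16 from 35000001 to 36000000 had no consensus origin and 9 summits each. On the side of origins, 226 windows held a single consensus origin start. These had a median of 69 summits and 13 EPIC2 regions summed over replicates, against 58 and 9 in origin-free windows. Windows with 2 starts numbered 197 and had medians of 82 and 18. The numbers of calls rose step by step from origin-free windows to those with 1 and 2 origins. Each consensus origin needs common regions of at least 2 replicates, so part of this rise follows from the definition.

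Origin-free windows were spread unevenly over the chromosomes. Chromosome 13 had the highest share, 18 of its 97 windows with 10 or more summits or 18.6%, followed by chromosome 11 with 21 of 131 or 16.0% and chromosome 4 with 29 of 189 or 15.3%, all against 8.86% over the 22 chromosomes. Chromosomes 13, 11, 4, 9 and 5 together held 43.9% of the origin-free windows and 26.2% of the windows with 10 or more summits. At the other end, chromosomes 17, 19 and 22 held none, among 80, 58 and 35 windows. These are all windows of those chromosomes rather than a sample, so no sampling interval applies. Chromosome 15 held 1 of 83 windows and chromosome 8 held 4 of 143.

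The order rested in part on the rule. When a place needed common regions of both replicates 1 and 3, leaving out replicate 2, chromosome 18 had the highest share instead of chromosome 13, and with windows of 500 kb it was chromosome 4. With common regions of any 1 replicate taken as an origin, a single window was left, on chromosome 7. Leaving out replicate 1 gave origin-free windows on all 22 chromosomes. Chromosome 22 held none under the other alternatives. Chromosome 17 also held some with windows of 500 kb, and chromosome 19 with windows of 500 kb, with a reciprocal overlap of 50% and without replicate 2 or 3. The number of copies of each chromosome in these cells was not measured, and its part in the order was not tested.

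**Figure D3:**
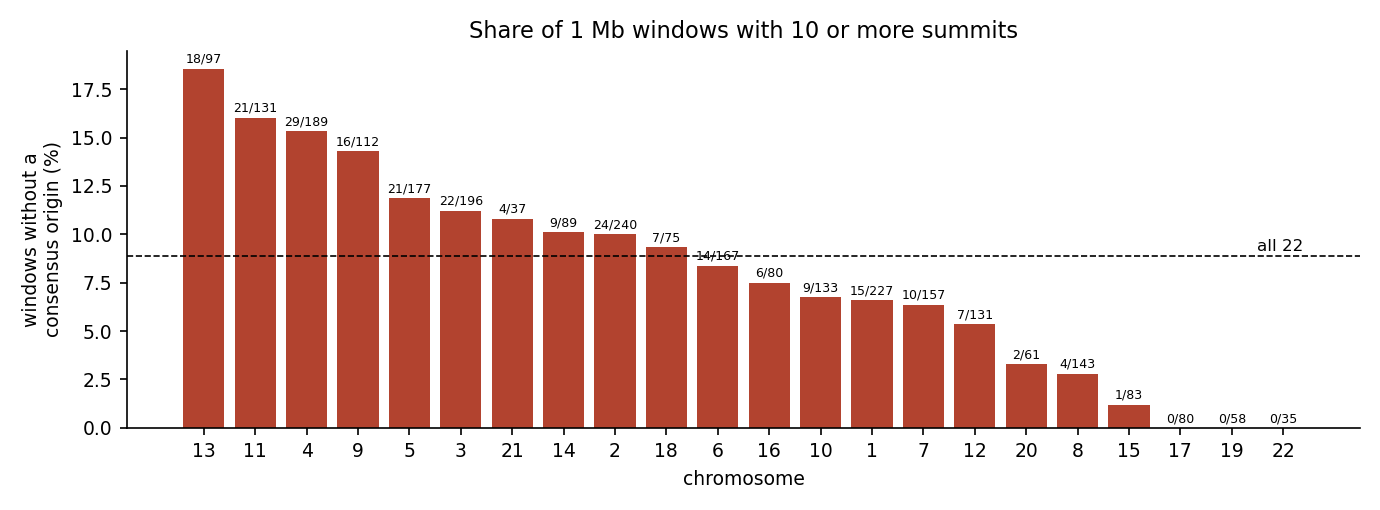
Share of 1 Mb windows with 10 or more summits that held no consensus origin start, in percent, by chromosome in falling order. Origin-free windows over all such windows are printed above each bar and the dashed line marks 8.86% over all 22 chromosomes; chromosome 13 stood at 18.6% and chromosomes 17, 19 and 22 at 0.

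Along the chromosomes the windows lay mostly in the interior. Only 9 of 239, or 3.77%, were among the 5 windows nearest to a chromosome end, against 183 of 2459 or 7.44% of origin windows. The median distance to the nearer end was 44 windows, against 33. Of the 9, 3 were the window with the last call of chromosome 7, 9 or 14, which is cut short by the chromosome end, and 3 were consecutive on chromosome 10 from 132000001 to 135000000. Windows without any call, as found at centromeres and other assembly gaps, bordered 2 origin-free windows and 30 origin windows, or 0.837% and 1.22%.

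The 239 windows fell into 169 runs of consecutive windows. Isolated windows made up 120 of the runs, 33 runs had 2 windows, 13 had 3, 1 had 4 and 2 had 5, so the median run was 1 window and 49.8% of the windows had an origin-free neighbour. Runs of 3 or more windows numbered 16 and held 22.2% of the windows. Of the 338 sides of these runs, 328 bordered an origin window, so the runs were rarely cut by windows left out for few summits. Windows chosen without replicate 1 formed 425 runs, of up to 12 windows, and those chosen without replicate 2 formed 292, of up to 10.

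The longest runs lay on chromosomes 13, 16 and 4. On chromosome 13, the 5 windows from 54000001 to 59000000 held 132, 42 and 80 summits in replicates 1, 2 and 3 and 23, 7 and 4 EPIC2 regions. Replicate 1 had 28, 38, 22, 23 and 21 summits in the successive windows, replicate 2 had 12, 5, 1, 14 and 10, and replicate 3 had 16, 20, 14, 15 and 15. No window of the run was without summits in any replicate, with 21 to 38 per window in replicate 1, 1 to 14 in replicate 2 and 14 to 20 in replicate 3. On chromosome 16, the 5 windows from 59000001 to 64000000 held 209, 45 and 111 summits and 45, 4 and 6 EPIC2 regions. Replicate 1 had 10, 12, 5, 5 and 13 EPIC2 regions in the successive windows of this run, while replicate 2 had at most 2 in any of them and replicate 3 at most 2. On chromosome 4, the 4 windows from 58000001 to 62000000 held 94, 34 and 50 summits and 19, 7 and 0 EPIC2 regions, and replicate 3 thus called no diffuse region there at all.

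The borders of these runs were uneven. The chromosome 16 run lay beside a window with 36 consensus origin starts on its lower side and 1 on its upper side. The chromosome 4 run lay between windows with 30 and 1, and the chromosome 13 run between windows with 8 and 1. Over the 160 runs with an origin window on both sides, the poorer side had a median of 1 consensus origin and the richer side a median of 5.5, below the median of 11 over all origin windows. In 39 of the 160 runs the richer side reached 11 or more.

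Measured from origin to origin, the gaps were wider than the windows. The stretch between neighbouring consensus origins that held the chromosome 13 run reached from 53423201 to 59901200, or 6.48 Mb, and that of the chromosome 16 run from 58862201 to 64340400, or 5.48 Mb. In all, 161 stretches held more than 50% of an origin-free window and crossed no window without calls. They were 1.02 to 6.48 Mb long with a median of 2.00 Mb, and 24 of them were 3 Mb or longer. The median distance between neighbouring consensus origins on chromosomes 1 to 22 was 13.6 kb. A stretch holding more than 50% of an origin-free window is long by the rule, so this contrast follows from the choice. Distances of 1 Mb or more numbered 323, so not all long gaps were among these stretches. The stretch on chromosome 13 was also not silent, since it held 173, 50 and 113 summits in replicates 1, 2 and 3.

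Windows beside origin-free windows were themselves poor in origins. Origin windows next to an origin-free window had a median of 3 consensus origin starts (298 windows). The median was 7 at a distance of 2 windows (225 windows), 10 at 3 (186 windows) and 14 at 10 or more (849 windows). The mean number of EPIC2 regions rose over the first 3 steps from 6.23 to 19.3, 34.6 and 44.1 in replicate 1, from 1.41 to 6.39, 11.4 and 13.2 in replicate 2, and from 1.60 to 9.93, 20.9 and 27.3 in replicate 3. The mean number of summits rose less steeply, from 29.4 to 51.1, 71.2 and 80.9 in replicate 1. Origin-free windows were thus the low points of wider slopes in the number of calls, most of it gained within about 3 Mb. Neighbouring windows are not independent, and the slope is given as a description.

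**Figure D4:**
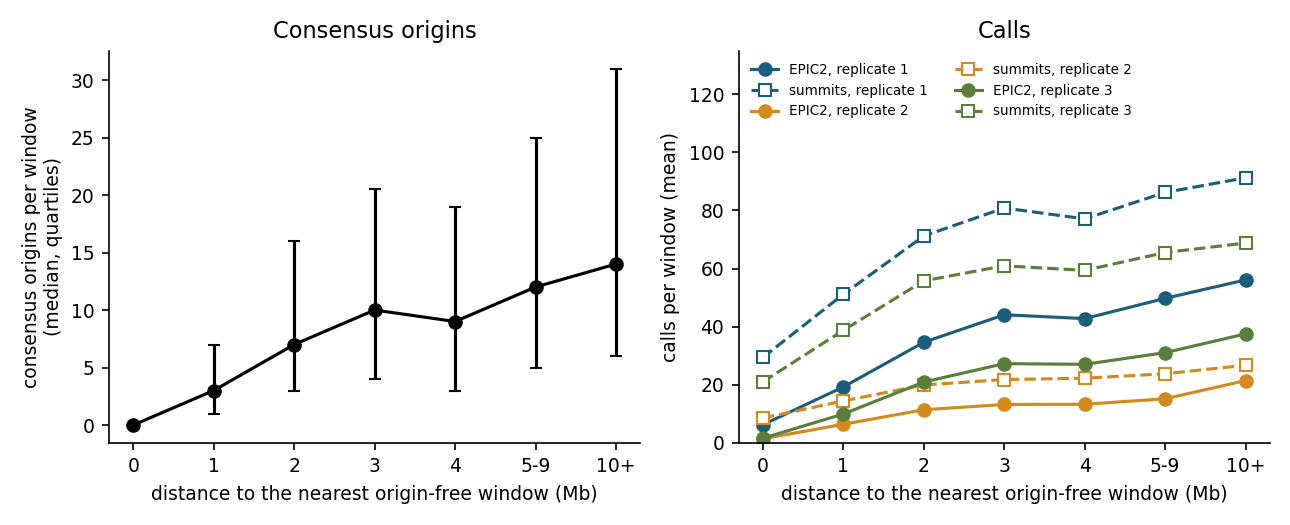
Consensus origin starts per window (left, median with quartiles) and mean calls per window (right; filled circles EPIC2 regions, open squares summits, 1 colour per replicate) by distance in Mb to the nearest origin-free window, over windows with 10 or more summits on chromosomes that hold an origin-free window. Median consensus origins were 3, 7 and 10 at distances of 1, 2 and 3 Mb and 14 at 10 Mb or more.

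Some origin-free windows held many calls. The window with the most summits lay on chromosome 3 from 105000001 to 106000000, with 42, 17 and 48 summits in replicates 1, 2 and 3 and 10, 3 and 9 EPIC2 regions. A window on chromosome 12 from 21000001 to 22000000 had 46, 12 and 48 summits and the most EPIC2 regions, 14, 1 and 8. On chromosome 4 from 138000001 to 139000000 there were 42, 13 and 45 summits but 8, 0 and 4 regions. Windows on chromosome 5 from 101000001 to 102000000 and on chromosome 9 from 81000001 to 82000000 had 98 summits each. On chromosome 2, from 184000001 to 185000000, the 3 replicates had 7, 5 and 10 EPIC2 regions and still no shared origin. In these windows all or nearly all replicates called diffuse regions, but common regions of different replicates did not overlap.

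The fewest diffuse regions, 1 each over all replicates, were found on chromosome 9 from 66000001 to 67000000 and on chromosome 18 from 14000001 to 15000000. The former had 4, 6 and 5 summits and the latter 12, 6 and 5.

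Replicates ranked the origin-free windows only loosely alike. Across the 239 windows, the Spearman correlation of the number of summits was 0.39 for replicates 1 and 2, 0.51 for replicates 1 and 3 and 0.33 for replicates 2 and 3. For EPIC2 regions it was 0.15, 0.20 and 0.21. Many windows were tied in these numbers, since the median was 6, 1 and 1 EPIC2 regions in replicates 1, 2 and 3. Across the 2459 origin windows, which span a far wider range of numbers, the values for summits were 0.87, 0.93 and 0.80. Those for EPIC2 regions were 0.90, 0.95 and 0.87. Windows are not replicates and share their libraries, so no p is given. Replicate 1 had the most summits, or tied for the most, in 209 of the 239 windows, and replicate 3 had more than replicate 1 in 30. These orders were not counted in origin windows, where replicates 1, 2 and 3 had means of 84.7, 24.4 and 63.5 summits.

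In 13 of the origin-free windows replicate 3 had fewer summits than replicate 2, although it listed more summits in all. How often this occurred in origin windows was not counted. The 3 consecutive windows near the end of chromosome 10, with an origin window on both sides, were among the 13. There, replicate 1 had 13, 28 and 49 summits in successive windows, replicate 2 had 4, 12 and 22, and replicate 3 had 1, 6 and 8. Replicate 1 had 19 EPIC2 regions in the last of the 3, from 134000001 to 135000000, replicate 2 had 2 and replicate 3 had 0. This run thus had few summits of replicate 3 and no EPIC2 region of it in any of the 3 windows, and the read depth there was not measured.

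Apart from consensus origins that began in the window before, the rule leaves only common regions of a single replicate in these windows. Most of them were of replicate 1, which also had the longest list. They made 1885 places, of which 1396 or 74.1% were of replicate 1, 179 or 9.50% of replicate 2 and 310 or 16.4% of replicate 3. Among the 77390 places of a single replicate in origin windows, 65.4% were of replicate 1 and 28.1% of replicate 3. Common regions of all 3 replicates were present, at different places, in 77 of the origin-free windows, of 2 replicates in 104, and of 1 replicate in 57. The remaining window, at the end of chromosome 7, had none. No common region began in 3 origin-free windows for replicate 1, in 122 (51.0%) for replicate 2 and in 96 (40.2%) for replicate 3. In origin windows these numbers were 0, 53 (2.16%) and 74 (3.01%). Absence of a consensus origin therefore rarely meant absence of common regions of replicate 1, but often of those of replicate 2 or 3.

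Some EPIC2 regions of different replicates did overlap, which the rule allows unless regions that hold summits of their own replicates overlap directly. EPIC2 regions of the origin-free windows, with or without a summit, merged into 2150 places. Of these, 56 or 2.60% held regions of at least 2 replicates, against 43.8% of 136176 places in origin windows. Since most of the regions held a summit, this low share was largely fixed by the choice of windows. Of the 56 places, 31 joined replicates 1 and 2, 12 joined replicates 1 and 3, 12 joined replicates 2 and 3, and 1 joined all 3. They lay in 46 windows. In 51 of the 56 a single replicate had a common region, in 4 none had and in 1 at least 2 replicates had.

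The regions left in origin-free windows were narrower and had lower scores than others of their replicate. Their median width was 600 bases in replicate 1, 2200 in replicate 2 and 2400 in replicate 3, against 1800, 2800 and 3400 in origin windows. The median percentile of the EPIC2 score among all autosomal regions of the replicate was 27.5, 28.9 and 19.9, against 50.3, 50.2 and 50.2, a mean difference of -24.8 ± 4.84 points (SD, n = 3). A summit of the same replicate lay in 93.8%, 53.3% and 80.9% of them, against 81.5%, 56.7% and 71.7% in origin windows. This difference was positive in replicates 1 and 3 and negative in replicate 2, with a mean of 6.07 ± 8.36 points (SD, n = 3), so it did not hold against the spread of the replicates. The rule keeps overlapping common regions of 2 replicates out of origin-free windows, so the lower widths and scores may follow in part from the choice. Among places with common regions of a single replicate, the median width was 1000 bases in origin-free windows and 1600 in origin windows. These 2 widths pool the replicates. Replicate 1, which had the narrowest regions, made up 74.1% of such places in origin-free windows and 65.4% in origin windows. Part of the difference may therefore lie in this mix, and the places were not compared within each replicate. Scores were not compared in this way.

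Summits in origin-free windows lay mostly outside diffuse regions. An EPIC2 region of their own replicate held 21.7% of them in replicate 1, 9.21% in replicate 2 and 7.05% in replicate 3, against 59.1%, 45.6% and 45.1% in origin windows. Their median score, read as −log10 of the q-value, was 4.03, 2.80 and 3.92, against 4.88, 3.42 and 3.92. The median percentile of the score differed from that of origin windows by -11.9 points in replicate 1 and by -12.2 points in replicate 2, whereas in replicate 3 both medians fell on the same tied score and did not differ. The highest scores were 39.2, 71.7 and 29.0 in origin-free windows, against 1305, 2272 and 3497 in origin windows. These highest scores come from sets of very unequal size, 7032, 2042 and 5024 summits against 208287, 60052 and 156207. The rule also leaves out windows where summits of 2 replicates lay in overlapping EPIC2 regions. No conclusion on very strong summits is therefore drawn from the highest scores. The typical summit differed little in replicate 3.

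Summits of different replicates coincided in origin-free windows in spite of the lack of shared regions. Within 250 bases, 9.64% of the 7032 summits of replicate 1 had a summit of replicate 2 and 16.4% had a summit of replicate 3, and 9.70% of the 2042 summits of replicate 2 had a summit of replicate 3. In origin windows the shares were 14.8%, 19.7% and 15.5%, at a higher density of summits. Per kb, summits of the other replicate were 21.4, 14.3 and 8.30 times as dense within 250 bases as at 5 to 10 kb in origin-free windows, and 9.13, 4.68 and 3.84 times in origin windows. The coincidence was thus a local one in both kinds of window. Both counts describe the called positions, and whether they rest on nascent strands or on properties of the DNA or its alignment was not tested.

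Chains of summits at most 250 bases apart gave 1800 sites of at least 2 replicates, in 236 of the 239 origin-free windows, a mean of 7.53 per window against 27.7 in origin windows. Sites of all 3 replicates numbered 126 and lay in 94 windows, or 39.3%, against 87.4% of origin windows. No replicate had an EPIC2 region over 1146 of the 1800 sites, which is 63.7% against 22.6% in origin windows. A further 647 lay in a region of 1 replicate, 6 in regions of 2 and 1 in regions of all 3. The rule itself keeps sites with common regions of 2 replicates out of these windows.

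The sites of all 3 replicates with the highest lowest score were tied at 6.25, in replicate 2. Picked after their values were seen, they show both kinds. On chromosome 2, the summits of replicates 1, 2 and 3 lay at 188230687, 188230700 and 188230857 with scores of 30.6, 6.25 and 10.4, and 1 replicate had an EPIC2 region there. On chromosome 4 they lay at 179169985, 179170021 and 179169948, a span of 74 bases, with scores of 7.01, 6.25 and 7.54, and no replicate had a region. A second site on chromosome 4 had summits at 138430018, 138430065 and 138429924 with scores of 20.3, 6.25 and 7.54. It lay in the window from 138000001 to 139000000 described above for its many summits, in a region of 1 replicate. The tied site on chromosome 7 had summits at 119197291, 119197170 and 119197194 with scores of 27.1, 6.25 and 7.54. A region of 1 replicate lay there as well.

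Summits that coincided with another replicate had higher scores than those that did not. In origin-free windows 24.4% of summits of replicate 1, 37.6% of replicate 2 and 24.7% of replicate 3 had one of either other replicate within 250 bases. Their median score percentile was higher by 14.7, 15.8 and 10.2 points, a mean of 13.6 ± 2.95 (SD, n = 3). The direction was the same in 3 of 3 replicates, but with n = 3 an exact sign test (2-sided) cannot give a p below 0.25, so none is given.

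Whether a replicate outside the choice also had few calls was asked by leaving out each in turn. Windows were chosen by the other 2 replicates alone, both of which were then needed for a consensus origin, and common regions were counted in the replicate left out. Replicates 2 and 3 chose 1022 windows, in which replicate 1 had a mean of 13.7 common regions against 52.2 in windows with an origin, a ratio of 0.262. Replicates 1 and 3 chose 494 windows, in which replicate 2 had 1.99 against 11.0, a ratio of 0.181. Replicates 1 and 2 chose 386 windows, in which replicate 3 had 2.78 against 24.0, a ratio of 0.116. The mean ratio was 0.187 ± 0.0733 (SD, n = 3), below 1 in 3 of 3 replicates, where the same limit on the exact sign test applies.

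The replicate left out therefore also had few common regions in these windows, though most windows still held some. It had no common region in 1 of the 1022 windows for replicate 1, in 120 of 494 for replicate 2 and in 92 of 386 for replicate 3, against 0, 53 and 74 of the windows with an origin. Its summits were less reduced than its common regions in every case, with ratios of 0.456, 0.415 and 0.403 in replicates 1, 2 and 3, a mean of 0.425 ± 0.0280 (SD, n = 3). Origin-free windows made up 234 of the 1022 windows chosen without replicate 1, 236 of the 494 without replicate 2 and 235 of the 386 without replicate 3. A window without overlap between any pair of replicates lacks it for each pair by construction, and those missing from a choice fell under 10 summits.

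**Figure D5:**
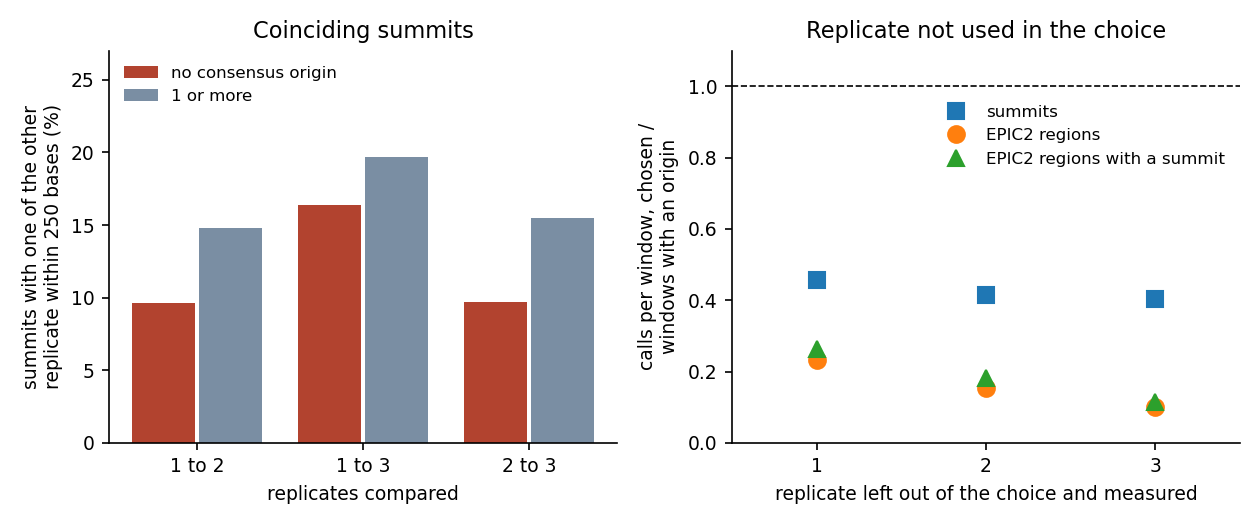
Left, share of summits with a summit of another replicate within 250 bases, in percent, in origin-free windows and origin windows. Right, calls per window in a replicate left out of the choice, as the ratio of windows chosen by the other replicates to windows with an origin; ratios for common regions were 0.262, 0.181 and 0.116, and those for summits 0.456, 0.415 and 0.403, all below the dashed line at 1.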

How the data were processed

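By the methods of the study, the authors mapped SNS-seq reads to hg19 with Bowtie2 (version 2.3.4.2 in the submitters' processing notes), removed duplicates with Picard (2.18.17) and called each replicate separately with MACS2 (q = 0.1) and EPIC2 (FDR = 0.1). No control library is named. Deposited summits carry a score read as −log10 of the q-value; the deposited EPIC2 score is of a kind not given in the sources used here and served for ranks within a replicate. EPIC2 starts lie on a grid of 200 bases, and 1 base was added to the ends to close the last step. Regions, summits and consensus origins were placed in a window by their start, and regions merged where they overlapped by 1 base or more. The lists hold no header.

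Alternatives moved the grid by 500000 bases, used 500 kb windows with 5 or more summits, 20 or more summits, a q-value of 0.01, any overlap of a window with an origin, a reciprocal overlap of 50%, any 1 replicate, and left out each replicate. Windows named are the 3 longest runs, the 5 with the most summits, the 3 with the most EPIC2 regions and the extreme chromosomes; others were named after their values were seen. The members and the choice of measures were made with earlier results of these data known. Functions were tested on made-up calls. Python 3.11.15, numpy 2.4.6, pandas 2.3.3 and matplotlib 3.10.9 were used.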

Additional observations from a re-analysis of the deposited data

How the results depend on the processing

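Ratios of calls in origin-free to origin windows are not free of the choice of windows, so only their size is of use here. The ratio in a replicate left out of the choice stands apart from this. Windows of 500 kb gave 1009 origin-free windows in 540 runs and a summit ratio of 0.357. A reciprocal overlap of 50% gave 384 windows and a summit ratio of 0.378, and a q-value of 0.01 a summit ratio of 0.332. Accepting common regions of any 1 replicate as an origin left 1 window in 1 run, with ratios of 0.0488 for summits and 0.0317 for EPIC2 regions. This makes more origins by construction. Leaving out 1 replicate, with both others needed, gave 386 (without replicate 3) to 1022 windows (without replicate 1), 247 to 425 runs, summit ratios of 0.367 (without replicate 2) to 0.454 (without replicate 1) and EPIC2 ratios of 0.108 (without replicate 2) to 0.175 (without replicate 1). These last ratios are means over the replicates kept. The cause was not tested for the other settings. The number of origin-free windows thus rests on the definition, while the ratio in the replicate left out of the choice moved by less than its SD under each alternative that could give it (0.183 to 0.246), which the rule of any 1 replicate and leaving out replicates could not. No paired analysis was possible because the 3 replicates form a single group. Read depth is unknown, so which windows lack origins for want of reads cannot be stated.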

Other observations

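Chromosome X lay outside the choice of windows. By the same rule, 64 of its 104 windows with 10 or more summits, or 61.5%, held no consensus origin start, against 8.86% on chromosomes 1 to 22. They formed 34 runs with a median of 1.5 windows and a longest run of 6. Their mean number of summits was 16.6, 4.69 and 4.25 in replicates 1, 2 and 3, and that of EPIC2 regions 2.44, 0.828 and 0.141. A further 52 windows of the chromosome held under 10 summits. These 64 windows thus had fewer summits on average than the origin-free windows of the autosomes in each replicate, and the number of copies of the chromosome was not measured.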
